A study of Mus musculus with 4 samples.

Results

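The transcripts of the T cell receptor complex and of its first signalling steps were followed in mouse regulatory T (Treg) cells differentiated in culture. The 9 genes are Cd3d, Cd3e, Cd3g, Cd247, Cd4, Lck, Zap70, Lat and Lcp2, chosen by name. Every probe that carries one of these names on a single-colour Agilent mouse array was kept, which gave 20 of the 56310 usable probes. The comparison of the genotypes rested on 4 arrays, 2 from cells of Junbfl/flCd4-Cre mice and 2 from cells of Junbfl/fl mice, all C57BL/6. In Junbfl/flCd4-Cre mice, Cre recombinase is made under the Cd4 promoter and removes the floxed Junb alleles in T cells. In Junbfl/fl mice the floxed alleles are present without Cre. JunB, the product of Junb, is an AP-1 subunit. All cells began as sorted naive CD4 T cells (CD4+, high in CD62L, low in CD44 and without CD25). Culture lasted 3 days with 1 μg/ml of anti-CD3 fixed to the plate and 0.5 μg/ml of anti-CD28. The medium also held 5 μg/ml of anti-IFN-γ, 5 μg/ml of anti-IL-4 and 5 ng/ml of human TGF-β1. The receptor under study was therefore itself the target of the stimulating antibody in both genotypes. The labels give neither the age of the mice nor the number of mice or cultures behind an array, so the spread behind each p-value is that between arrays and may be technical. Colon is named in the extraction label, against cultured Treg cells in the source and cell type labels.

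The αβ T cell receptor binds peptide on MHC molecules but has no signalling motif of its own. It is carried to the cell surface with the CD3γ, CD3δ and CD3ε chains and a ζ dimer, whose cytoplasmic tails hold the tyrosine motifs that start the signal. The kinase Lck, which associates with the coreceptor CD4, phosphorylates these motifs. ZAP-70 then docks on them and phosphorylates the membrane adaptor LAT and the cytosolic adaptor SLP-76, the product of Lcp2. LAT and SLP-76 gather the enzymes that drive calcium, Ras and NF-κB signalling. Treg cells need this pathway for their development in the thymus, and strength of receptor stimulation is one of the inputs to Treg differentiation in culture.

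Junb checks the labels. Its coding-region probe had processed signals of 4.11 and 1.47 on the arrays labelled Junbfl/flCd4-Cre 1 and 2, neither well above background, against 47.2 and 31.7 on the Junbfl/fl arrays. This probe entered the test only through the Junbfl/fl arrays, where it was high, so its adjusted p (0.0396 by limma) adds nothing to these signals. The probe at the 3′ end had 1053 and 10078 on the arrays labelled Junbfl/flCd4-Cre 1 and 2, against 9791 and 9072 on the Junbfl/fl arrays. The 3′ probe of the array labelled Junbfl/flCd4-Cre 2 thus did not follow the label, and genotypes are given below as labelled. Of the non-control spots, 66.3% and 61.0% were well above background on the arrays labelled Junbfl/flCd4-Cre, against 60.5% and 59.3% on the Junbfl/fl arrays.

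All 20 probes of the 9 genes were well above background on all 4 arrays. Of these, 0 passed the test between the genotypes (limma, Benjamini-Hochberg adjustment over 33606 probes, adjusted p under 0.05), where 6.78% of all probes did. The smallest adjusted p among the 20 probes was 0.079. At an unadjusted p under 0.05 stood 3 of the 20 probes, against 38.2% of all probes. The values of the genotypes did not overlap for 14 of the 20 probes, against 72.2% of all probes. Differences are given on the log2 scale, arrays labelled Junbfl/flCd4-Cre minus Junbfl/fl arrays, with the standard error of the fit and n = 2 arrays each. A permutation test with 2 arrays in each genotype cannot give a two-sided p below 0.333. The levels below are processed signals divided by the array's 75th percentile over probes, called scaled signals. They compare arrays for 1 probe and do not rank different probes. In RNA from a whole culture, fewer cells of a type and less RNA per cell cannot be told apart.

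**Figure D1:**
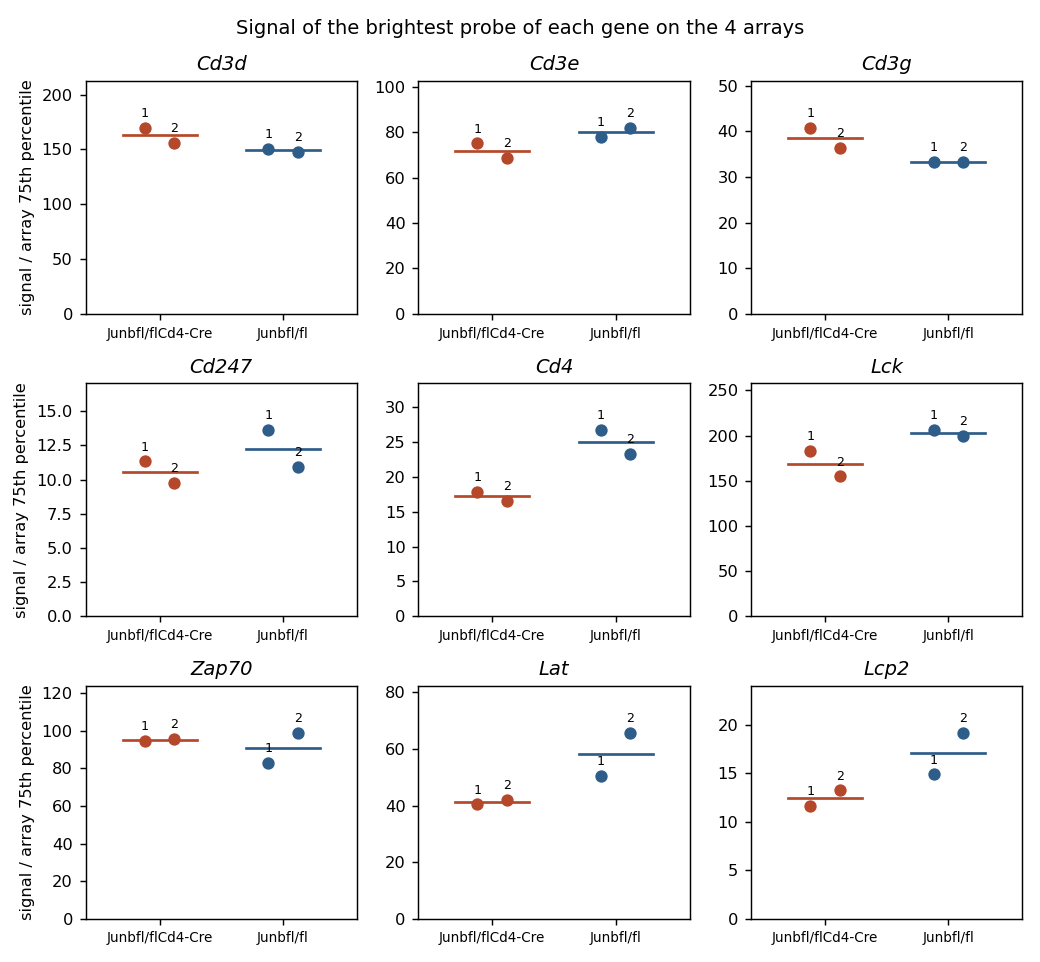
Scaled signal (multiples of the array's 75th percentile, linear axes from 0 that differ between panels) of the brightest probe of each of the 9 genes. Each point is 1 numbered array, with arrays labelled Junbfl/flCd4-Cre left of Junbfl/fl arrays and lines at the genotype means; Cd4 had 17.8 and 16.6 on the arrays labelled Junbfl/flCd4-Cre, against 26.7 and 23.2 on the Junbfl/fl arrays, and the 2 genotypes of Zap70 overlap.

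The genes of the CD3 chains stood close between the genotypes. Cd3d, which encodes CD3δ, had scaled signals of 170 and 156 on the arrays labelled Junbfl/flCd4-Cre, against 150 and 148 on the Junbfl/fl arrays (chr9:44794452-44794511, mm9). Both arrays labelled Junbfl/flCd4-Cre lay above both Junbfl/fl arrays, by a log2 difference of 0.13 ± 0.15, with a 95% confidence interval of -0.29 to 0.55 and an adjusted p of 0.56 by limma. A second Cd3d probe, whose placement covers 232 bases and thus spans an intron, had 105 and 97.6 on the arrays labelled Junbfl/flCd4-Cre, against 91.8 and 95.3 on the Junbfl/fl arrays (adjusted p = 0.604).

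Cd3g, which encodes CD3γ, had 40.8 and 36.4 on the arrays labelled Junbfl/flCd4-Cre, against 33.3 and 33.3 on the Junbfl/fl arrays (chr9:44777868-44777927, mm9). The groups did not overlap, and the log2 difference was 0.21 ± 0.16 (interval -0.22 to 0.64, adjusted p = 0.364). Cd3e, which encodes CD3ε, which pairs with both CD3γ and CD3δ, had 75.04 and 68.8 on the arrays labelled Junbfl/flCd4-Cre, against 77.8 and 82.0 on the Junbfl/fl arrays (chr9:44806828-44806887, mm9, minus strand). Here the arrays labelled Junbfl/flCd4-Cre were the lower ones, by -0.15 ± 0.16 (interval -0.58 to 0.27, adjusted p = 0.489). The second Cd3e probe had 4.58 and 3.73 on the arrays labelled Junbfl/flCd4-Cre, against 5.05 and 4.64 on the Junbfl/fl arrays (-0.23 ± 0.18, adjusted p = 0.394). Over the brightest probes of the CD3 genes, the intervals of the difference reached from -0.58 to 0.64 at the widest. Under the 75th percentile scaling, larger differences of these 3 transcripts were thus outside them and smaller ones were not detectable with 4 arrays. The intervals do not cover the choice of scaling: under median scaling Cd3e stood at -0.69.

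The 3 CD3 genes lie together on chromosome 9, with their probes inside 29446 bases. Within 100 kb of those probes the array held 11 probes of 5 other genes, and none passed the test, where 6.78% of all probes did. The log2 differences of the 11 probes were between -0.45, for a probe of Atp5l, and 0.82, for a probe of Ube4a (adjusted p = 0.164). An unadjusted p under 0.05 was found for 2 of the 11, that probe of Atp5l and a probe of Mpzl3 at 0.61, against 38.2% of all probes. The other Atp5l probe stood at -0.06, and the other Mpzl3 probes at -0.02 and -0.25.

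The promoter windows of Cd3d and Cd3e are shown because the 2 genes share a locus and their differences had opposite signs. They run from 250 bases before to 50 bases after the gene start in RefSeq (GRCm38.p6). Capitals mark the letters GGAAGT, a motif of ETS factors, or their reverse complement. The Cd3d window is chr9:44981536-44981835 (plus strand) and the Cd3e window chr9:45009562-45009861 (minus strand), and each holds 1 match.
Cd3d promoter: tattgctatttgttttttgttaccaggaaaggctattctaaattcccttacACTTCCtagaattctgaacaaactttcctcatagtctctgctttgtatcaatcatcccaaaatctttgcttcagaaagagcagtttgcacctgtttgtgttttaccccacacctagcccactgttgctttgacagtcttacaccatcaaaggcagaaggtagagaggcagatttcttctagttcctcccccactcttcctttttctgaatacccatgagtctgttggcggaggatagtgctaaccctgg
Cd3e promoter: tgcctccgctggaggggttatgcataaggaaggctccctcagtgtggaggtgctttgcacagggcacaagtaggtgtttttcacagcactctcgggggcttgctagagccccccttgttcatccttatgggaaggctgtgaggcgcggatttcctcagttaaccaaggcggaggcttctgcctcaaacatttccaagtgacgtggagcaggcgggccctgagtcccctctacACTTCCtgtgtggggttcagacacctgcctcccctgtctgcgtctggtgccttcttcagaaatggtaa
RefSeq windows were found for 8 of the 9 genes, 11 windows in all. The ETS letters were in 6 of the 11 windows (54.5%), against 23.8% of 32851 windows of the same length in the table. The letters TGTGGT, a RUNX motif, were in 3 of the 11 windows (27.3%), against 16.8% of all windows. The AP-1 letters TGANTCA, searched on both strands, were in none of the 11 windows, against 7.81% of all windows. These matches describe letters in short windows and say nothing of what binds there.

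Cd247 encodes the ζ chain and, by alternative splicing, further forms with other tails. It carried 4 probes, annotated to the zeta, eta and theta transcript variants and to an Ensembl transcript. The probes are named here by that annotation, and whether any of them reads 1 variant alone was not tested. The first 30 of each probe's 60 bases are shown, since the probes gave differences of both signs.
Cd247 zeta probe: taggtactgtgtgtattgttctatgggtat
Cd247 eta probe: gaccccaaccagctctacaatgagctcaat
Cd247 theta probe: aaacccccaacccattcatagggaatatca
Cd247 Ensembl transcript probe: cctcaacttaggaaatgtataggatccttg
On chromosome 1 (mm9, plus strand) the eta probe was placed at chr1:167786567-167787585, across an intron, and the zeta probe at chr1:167791567-167791626. The theta probe began 8757 bases after the zeta probe, and the Ensembl transcript probe 15711 bases after it.

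The zeta probe, the brightest of the 4, had scaled signals of 11.3 and 9.77 on the arrays labelled Junbfl/flCd4-Cre, against 13.6 and 10.9 on the Junbfl/fl arrays. These overlapped, with a log2 difference of -0.21 ± 0.20 (interval -0.76 to 0.34, adjusted p = 0.459). The eta probe had 0.892 and 0.909 on the arrays labelled Junbfl/flCd4-Cre, against 1.24 and 0.997 on the Junbfl/fl arrays (-0.31 ± 0.18, adjusted p = 0.278). The Ensembl transcript probe had 0.727 and 0.828 on the arrays labelled Junbfl/flCd4-Cre, against 0.602 and 0.793 on the Junbfl/fl arrays (0.17 ± 0.21, adjusted p = 0.576).

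The theta probe had the largest difference of the 20 probes. It had 0.885 and 1.48 on the arrays labelled Junbfl/flCd4-Cre, against 0.308 and 0.502 on the Junbfl/fl arrays. Both arrays labelled Junbfl/flCd4-Cre were above both Junbfl/fl arrays, by 1.54 ± 0.38 on the log2 scale or 2.91-fold, with an interval of 0.48 to 2.60. The unadjusted p was 0.0152 and the adjusted p 0.079, so the probe did not pass. The same-numbered arrays differed by 1.52 and 1.56. Its log2 ratio to the zeta probe on the same array differed between the genotypes by 1.75. Under the 11 other settings of the same test its difference was between 0.86 and 1.91 with adjusted p between 0.014 and 0.25, and it passed under 1 of them, the fit with the array number as a block, in which 25.4% of all probes passed.

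**Figure D2:**
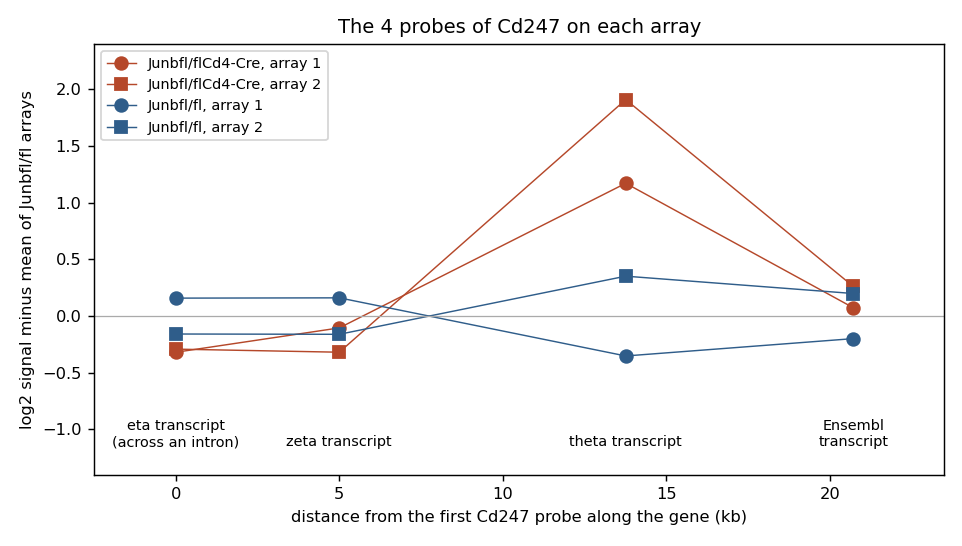
Log2 signal of the 4 Cd247 probes on each array, set against the mean of the Junbfl/fl arrays (vertical axis), by distance in kb from the first probe along the gene (horizontal axis). Lines join the probes of 1 array; at the theta probe both arrays labelled Junbfl/flCd4-Cre lie above both Junbfl/fl arrays, by 1.54 on average, while at the zeta and Ensembl transcript probes the genotypes overlap.

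Cd4 needs 2 cautions before its values: CD4 was a gate of the sort from which the cultures began, and the Cd4 promoter drives Cre in the mice labelled Junbfl/flCd4-Cre. Its brightest probe (chr6:124814711-124814770, mm9, minus strand) had 17.8 and 16.6 on the arrays labelled Junbfl/flCd4-Cre, against 26.7 and 23.2 on the Junbfl/fl arrays. Both arrays labelled Junbfl/flCd4-Cre were below both Junbfl/fl arrays, by -0.54 ± 0.17 (interval -0.99 to -0.08), with an unadjusted p of 0.0309 and an adjusted p of 0.103. The other probes gave smaller values. The second had 0.742 and 0.709 on the arrays labelled Junbfl/flCd4-Cre, against 0.786 and 0.675 on the Junbfl/fl arrays (-0.01 ± 0.17), and the third had 0.452 and 0.373 on the arrays labelled Junbfl/flCd4-Cre, against 0.678 and 0.448 on the Junbfl/fl arrays (-0.42 ± 0.27). Both of these overlapped between the genotypes. The 3 probes of Cd4 thus gave negative differences of unequal size.

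Lck, the kinase that phosphorylates the receptor tails, had 183 and 155 on the arrays labelled Junbfl/flCd4-Cre, against 206 and 199 on the Junbfl/fl arrays for its brightest probe (chr4:129225614-129225673, mm9, minus strand). The arrays labelled Junbfl/flCd4-Cre were lower without overlap, by -0.27 ± 0.17 (interval -0.73 to 0.20, adjusted p = 0.298). Its second probe had 6.25 and 5.17 on the arrays labelled Junbfl/flCd4-Cre, against 8.44 and 7.61 on the Junbfl/fl arrays, a difference of -0.50 ± 0.18 with an unadjusted p of 0.0516 and an adjusted p of 0.133. Zap70, the kinase that docks on the phosphorylated tails, overlapped between the genotypes on both its probes. The brightest (chr1:36839542-36839601, mm9) had 94.7 and 95.6 on the arrays labelled Junbfl/flCd4-Cre, against 83.0 and 99.1 on the Junbfl/fl arrays (0.07 ± 0.17, interval -0.40 to 0.54). The other had 29.3 and 26.8 on the arrays labelled Junbfl/flCd4-Cre, against 27.1 and 28.5 on the Junbfl/fl arrays (0.01 ± 0.16).

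The adaptors lay below their Junbfl/fl values on their brightest probes. Lat (chr7:133507719-133507778, mm9, minus strand) had 40.4 and 42.1 on the arrays labelled Junbfl/flCd4-Cre, against 50.5 and 65.8 on the Junbfl/fl arrays. The difference was -0.48 ± 0.20 (interval -1.03 to 0.06), with an unadjusted p of 0.0702 and an adjusted p of 0.158, and the same-numbered arrays differed by -0.32 and -0.64. Lcp2 had 11.7 and 13.2 on the arrays labelled Junbfl/flCd4-Cre, against 14.9 and 19.2 on the Junbfl/fl arrays for its brightest probe (chr11:33990902-33990961, mm9), a difference of -0.44 ± 0.20 (adjusted p = 0.187).

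The second Lcp2 probe, whose placement spans an intron, had 3.83 and 3.96 on the arrays labelled Junbfl/flCd4-Cre, against 5.57 and 6.58 on the Junbfl/fl arrays. Its difference of -0.64 ± 0.17 (interval -1.10 to -0.17) had an unadjusted p of 0.019 and an adjusted p of 0.0849. The third Lcp2 probe, designed on an Ensembl transcript, went the other way, with 1.05 and 1.101 on the arrays labelled Junbfl/flCd4-Cre, against 0.808 and 1.04 on the Junbfl/fl arrays (0.23 ± 0.19, adjusted p = 0.408). The first 30 bases of the 3 probes are shown, since their differences also had both signs.
Lcp2 brightest probe: gaagtctaagagtgcatggcagacatgaga
Lcp2 second probe: agaggacttcctgtctgtatcagatattat
Lcp2 Ensembl transcript probe: tcgaaataatccaacatcataggtgtaatt

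**Figure D3:**
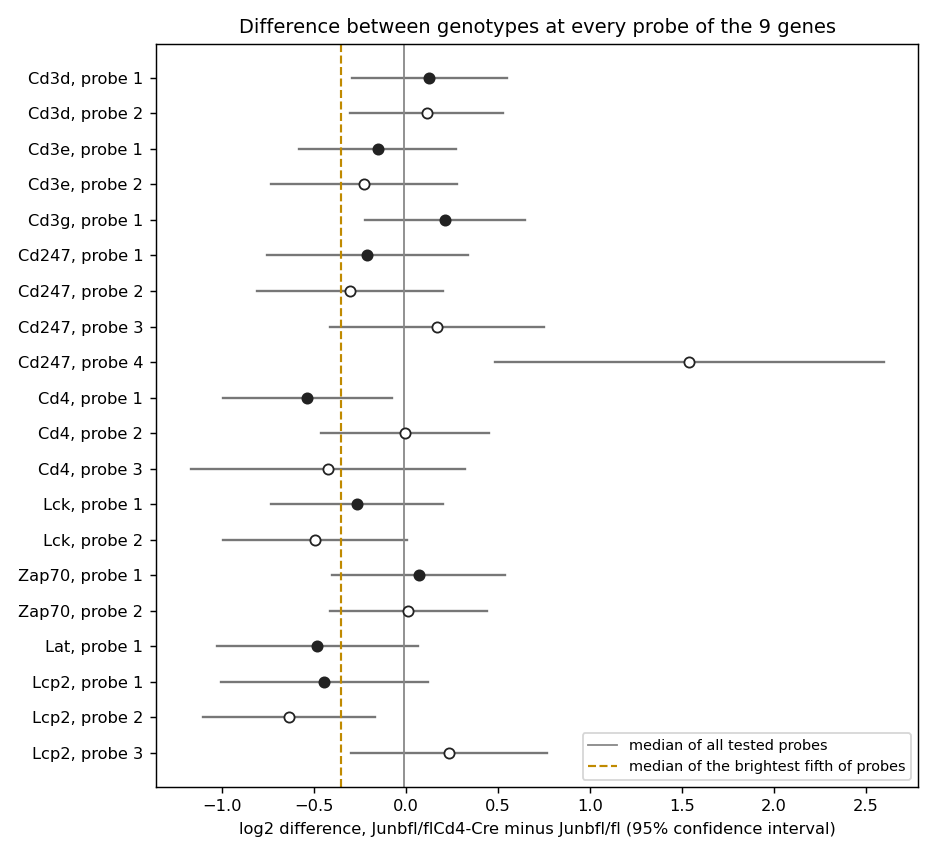
Log2 difference of each of the 20 probes, arrays labelled Junbfl/flCd4-Cre minus Junbfl/fl arrays, with 95% confidence intervals, filled points for the brightest probe of a gene, a grey line at the median of all tested probes (-0.01) and a dashed line at that of the brightest 6721 probes (-0.35). The differences run from -0.64 for the second Lcp2 probe to 1.54 for the Cd247 theta probe (probe 4), and no probe passed the test.

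Together the 20 probes had 12 negative and 8 positive differences, where 50.7% of all probes were negative. Of the 14 probes without overlap, 9 were lower and 5 higher on the arrays labelled Junbfl/flCd4-Cre, where 37.8% and 34.4% of all probes were so. The median difference over the 20 probes was -0.18, against -0.01 over all tested probes. Over the brightest probe of each gene it was -0.21, with 6 negative and 3 positive.

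The level of a probe moved with the difference across the array, so the members were set against probes of like brightness. The median difference was 0.68, 0.27, 0.01, -0.23 and -0.35 in 5 equal bins of the tested probes by mean signal, dimmest to brightest. The brightest bin held 13 of the 20 probes, with a median of -0.21 and 8 negative differences. Over the 6721 probes of that bin, the median was -0.35, 78.3% were negative and 3.01% passed the test. The genotypes did not overlap for 10 of the 13 probes, against 81.1% in the bin, and 2 of the 13 had an unadjusted p under 0.05, against 40.4%. What makes the difference follow the brightness was not tested. The median of these 13 probes lay above that of equally bright probes, and below that of all probes.

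Scaling decides the sign of several members. With each array scaled to its median in place of its 75th percentile, the median of all tested probes moved to -0.54. Under that scaling 38.6% of all probes passed, 31.4% as lower, and so did 6 of the 20 members' probes, all lower: the brightest probes of Cd4 (-1.07), Lck (-0.80), Lat (-1.02) and Lcp2 (-0.98), the second Lck probe (-1.03) and the second Lcp2 probe (-1.17). Of the 20 probes, 19 were then negative, and Cd3d, Cd3g and Zap70 turned to -0.41, -0.32 and -0.46. After quantile normalization 10 of the 20 probes were negative, their median turned to 0.032 against -0.077 over all probes, 0 passed (2 at an unadjusted p under 0.05), and Cd3e stood at 0.14. A factor that scales a whole array leaves the differences between its genes as they are. Against the mean of Cd3d, Cd3e and Cd3g on the same array, a yardstick chosen after the values were seen, Cd4 lay lower by a log2 difference of -0.60, at -0.62 and -0.58 on the arrays labelled Junbfl/flCd4-Cre, against 0.11 and -0.11 on the Junbfl/fl arrays. Lat and Lcp2 differed by -0.54 and -0.51, Lck by -0.33, Cd247 by -0.27 and Zap70 by 0.01, and of these Zap70 overlapped between the genotypes. These differences show unequal values within arrays and carry no test. The share of all genes without overlap against the CD3 mean was not computed. Without that yardstick, the genotypes did not overlap for 81.1% of the probes in the brightest bin. Only the brightest probe of each gene was used, and the other probes of Cd4, Cd247 and Lcp2 did not all follow it.

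**Figure D4:**
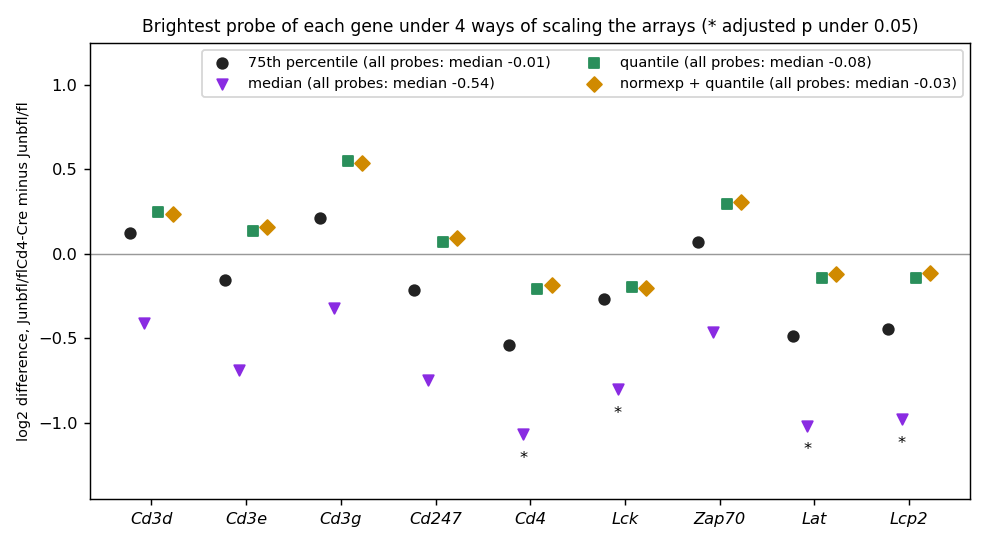
Log2 difference of the brightest probe of each of the 9 genes, arrays labelled Junbfl/flCd4-Cre minus Junbfl/fl arrays, under 4 ways of scaling, with an asterisk at an adjusted p under 0.05. Cd4, Lck, Lat and Lcp2 lie below 0 under all 4 and carry the asterisk under median scaling, and Cd3d is at 0.13 under the 75th percentile scaling and at -0.41 under median scaling.

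The authors' deposited table lists 14 rows of the 9 genes among 26594. None has an adjusted p under 0.05 there, against 2.41% of all its rows, and 4 of the 14 have an unadjusted p under 0.05, against 32.8% of all its rows. The highest log2 difference of the 14 rows in the authors' deposited table was 1.1 for the Cd247 theta probe (adjusted p 0.0868), followed by 0.57 for Cd3g (adjusted p 0.0789). In the authors' deposited table the median difference over the 14 rows was 0.06, against -0.04 over all rows.

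The wider pathway was read from 5 lists of 77 gene names by role. With 1 probe per gene, 63 were tested, and 1 rose and 2 fell on the arrays labelled Junbfl/flCd4-Cre (4.76%), against 8.46% of the 22475 genes tested, 7.03% higher and 1.43% lower. The median difference over the 63 genes was -0.10, against 0.01 over all genes, but its sign turned after quantile normalization, at 0.10 against -0.012 over all genes, and after normexp with quantile normalization, at 0.093 against -0.0056. Of 8 coreceptors and costimulatory receptors 7 were tested, and Cd2, an adhesion receptor of T cells, fell. It had 29.8 and 40.7 on the arrays labelled Junbfl/flCd4-Cre, against 90.0 and 84.9 on the Junbfl/fl arrays (-1.33 ± 0.21, adjusted p = 0.0484 by limma over all genes).

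Of 26 adaptors and effectors of the LAT complex, all tested, 1 fell and 1 rose. Malt1, the paracaspase that carries receptor signals to NF-κB, had 5.28 and 4.28 on the arrays labelled Junbfl/flCd4-Cre, against 14.96 and 15.5 on the Junbfl/fl arrays (-1.68 ± 0.18, adjusted p = 0.0321). Its 4 probes had differences between -1.32 and -1.68, and 3 of them passed over all probes. Trat1, a transmembrane adaptor associated with the receptor complex, had 1.69 and 1.98 on the arrays labelled Junbfl/flCd4-Cre, against 0.509 and 0.725 on the Junbfl/fl arrays (1.59 ± 0.24, adjusted p = 0.0457).

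No gene of the other lists passed. All 11 proximal kinases and regulators tested had negative differences with a median of -0.25, but 4 of the 11 were negative after quantile normalization, with a median of 0.033, and 7 with the mean over a gene's probes. Of the 11, 1 had an unadjusted p under 0.05, against 38.2% of all probes. The lowest p-values were those of Txk, a Tec family kinase, at -0.59 (adjusted p = 0.108) and Csk, the kinase that restrains Lck, at -0.44 (adjusted p = 0.136). Among 19 negative regulators the median was -0.10 (0.12 after quantile normalization), and 3 had an unadjusted p under 0.05, against the same 38.2%. There Dok2, an inhibitory adaptor, stood at -0.71 (adjusted p = 0.0728) and Cblb, a ubiquitin ligase, at 0.51 (adjusted p = 0.0861). Of 12 names for receptor chain constant regions and Ptcra, 2 matched a probe name and neither passed the filter. The 3 calls were lost without any 1 of the 4 arrays, as was every call over the whole array. A genotype then kept 1 array. Across these fits Malt1 lay between -1.83 and -1.53, Trat1 between 1.33 and 1.85 and Cd2 between -1.55 and -1.10. The 3 calls were also lost after quantile normalization, where 650 of 33606 probes were called. There 14 of the 63 genes had an unadjusted p under 0.05, against 10833 of 33606 probes. Median scaling called 22 of the 63 genes, of which 1 was higher, where it called 38.6% of all probes, 31.4% as lower. In this paragraph the shares are over all probes, while the list genes were tested with 1 probe per gene, so the shares are only a rough background.

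**Figure D5:**
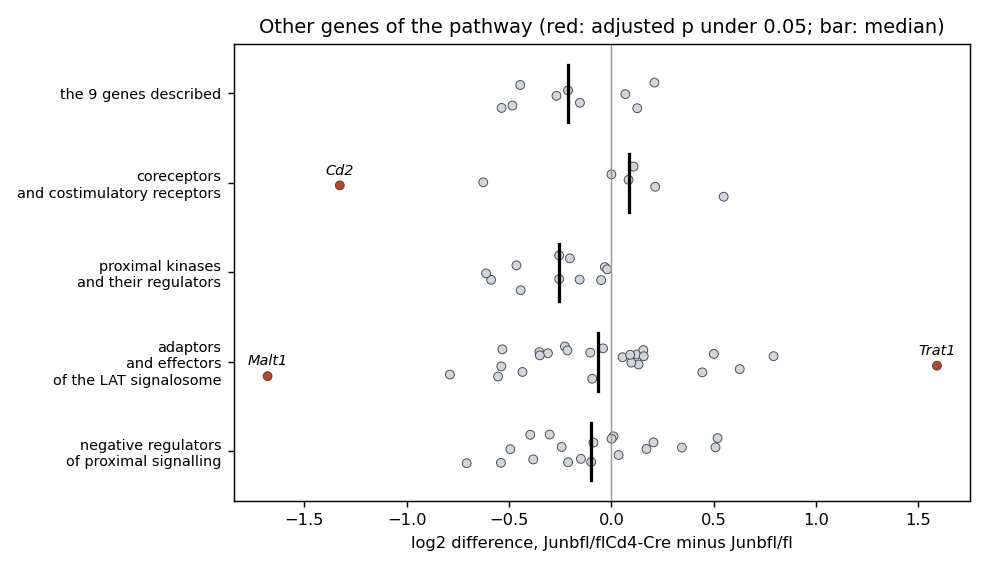
Log2 differences, arrays labelled Junbfl/flCd4-Cre minus Junbfl/fl arrays, of the 9 genes (top row) and of the tested genes of 4 pathway lists, 1 point per gene, red at an adjusted p under 0.05, with bars at the medians and points spread vertically for legibility. Malt1 at -1.68 and Cd2 at -1.33 lie lowest, Trat1 at 1.59 highest, and all 11 kinases and regulators lie below 0 under this scaling (4 of 11 after quantile normalization).

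Markers of other cells were read on the same arrays. Over all genes 7.03% passed as higher, and 38.2% of all probes had an unadjusted p under 0.05. In the 2 dimmest of the 5 bins by mean signal, 24.5% and 34.1% of the differences were negative. Positive differences thus prevailed among the dimmest probes of any kind, while 78.3% of the differences in the brightest bin were negative. The markers below were not set against probes of like brightness, and not all of them were dim. Of 9 B cell markers 7 were tested and all were positive (6 under median scaling and after quantile normalization), with summed scaled signals of 8.17 and 5.61 on the arrays labelled Junbfl/flCd4-Cre, against 3.95 and 1.71 on the Junbfl/fl arrays. Ms4a1, which encodes CD20, and Ebf1 rose, and Blk was not well above background on any array. Of 12 myeloid markers 8 were tested, all positive (7 under median scaling) and none past the test (2 at an unadjusted p under 0.05), summing to 62.1 and 32.6 on the arrays labelled Junbfl/flCd4-Cre, against 26.6 and 17.8 on the Junbfl/fl arrays, with Adgre1, Fcgr1 and Ly6g below background on all arrays. Of these sums Itgam made 54.9 and 21.0 on the arrays labelled Junbfl/flCd4-Cre, against 23.7 and 13.4 on the Junbfl/fl arrays. The NK cell markers gave 2 tested genes of 7, with sums of 18.0 and 33.5 on the arrays labelled Junbfl/flCd4-Cre, against 3.90 and 6.55 on the Junbfl/fl arrays, of which Nkg7 made 17.7 and 33.3 on the arrays labelled Junbfl/flCd4-Cre, against 3.83 and 6.49 on the Junbfl/fl arrays. Neither tested NK cell gene passed (both had an unadjusted p under 0.05), and Ncr1 was below background on all arrays. The 5 tested of 11 colon epithelium markers, none past the test (2 at an unadjusted p under 0.05, Krt8 and Lgr5), summed to 0.925 and 0.851 on the arrays labelled Junbfl/flCd4-Cre, against 0.618 and 0.602 on the Junbfl/fl arrays, and Krt19, Krt20, Cdh1, Vil1 and Muc2 were below background on all arrays. The 7 tested of 11 stromal and endothelial markers had 6 positive differences, 4 under median scaling, and a median of 1.01. They summed to 18.2 and 19.2 on the arrays labelled Junbfl/flCd4-Cre, against 29.3 and 24.7 on the Junbfl/fl arrays, with Pdgfra, Pdgfrb and Cdh5 below background on all arrays. Of these sums Acta2 made 16.4 and 17.1 on the arrays labelled Junbfl/flCd4-Cre, against 28.3 and 23.7 on the Junbfl/fl arrays. Col1a1 passed the test as higher, but it and Lgr5 were not well above background on either Junbfl/fl array and entered the test only through the arrays labelled Junbfl/flCd4-Cre. The 12 T cell markers, which share Cd2, Cd5, Cd28, Trat1 and Skap1 with the pathway lists, summed to 446 and 406 on the arrays labelled Junbfl/flCd4-Cre, against 543 and 522 on the Junbfl/fl arrays. Of these sums Thy1 made 69.5 and 73.2 on the arrays labelled Junbfl/flCd4-Cre, against 141.2 and 140.6 on the Junbfl/fl arrays. Cd2 made 29.8 and 40.7, against 90.0 and 84.9. Cd5, the largest part, overlapped between the genotypes, at 197 and 151 against 167 and 158. Among the 12 T cell markers Cd2 and Thy1 fell and Trat1 rose, with 7 negative and 5 positive differences. The list median was -0.17, or 0.12 after quantile normalization. The part of other cells in the receptor genes' values was not tested.

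The profile of the CD3 genes over the 4 arrays was close to flat, and many genes shared it. Of 14270 genes well above background on all arrays, 1417 (9.93%) lay nearer to the mean of the 3 CD3 genes than 0.219, the Euclidean distance of Cd3e on the log2 scale. The 5 nearest were Zfp81, Zfp959, Sec61a2, Zfp626 and Ttc3, at distances of 0.0153 to 0.029.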

How the data were processed

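RNA of the cultured cells was hybridised to 4 single-colour Agilent arrays, which were read with Agilent Feature Extraction 11.5.1.1, per the submitters' processing notes. The deposited files hold processed intensity per spot, background-subtracted within the array, per the file headers. The authors' deposited table holds log2 values per array, a log2 difference, p-values with adjustment and moderated scores. The steps behind the authors' log2 values are not given in the sources used here.

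Groups came from the sample titles. Control spots and spots flagged as outliers were left out, spots of a probe were averaged, and 295 probes without a usable spot were dropped. Log2 intensity minus the array's 75th percentile was tested with limma 3.58.1 (R 4.3.3, lmFit and eBayes, no covariate) for 33606 probes well above background on both arrays of a genotype. The gene-level fit took the probe with the highest mean. Probe positions are those in the files (mm9). Names were brought up to date with RefSeq (GRCm38.p6), with 32831 probes matched by accession, 10168 by current symbol and 517 by synonym. The fit was tested on simulated data. The number of arrays limits the precision.

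Named are all 9 members, Junb, every called gene of a pathway list or else the 2 with the smallest p, the 5 genes nearest the CD3 profile and the CD3 neighbours. Single marker genes were named after their values were seen. Members and lists were chosen with earlier results of these data known. Alternatives were median scaling, quantile normalization, normexp background correction (offset 50), other filters, all spots, the array number as a block, leaving out each array, the mean over a gene's probes and the authors' table. Tables were handled in Python 3.11.15 with numpy 2.4.6 and pandas 2.3.3, and plots drawn with matplotlib 3.10.9.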

Additional observations from a re-analysis of the deposited data

How the results depend on the processing

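The number of probes called over the whole array was 2277 and moved to 12972 under median scaling, 650 after quantile normalization, 343 after normexp with quantile normalization, 1377 with probes well above background on all 4 arrays, and 0 with no filter on dim probes, where 12028 had an unadjusted p under 0.05. The split of higher calls was 1858 of 2277, and 2405 of 12972 under median scaling. Leaving out each array gave 0 calls each time, with 7315 to 11361 probes at an unadjusted p under 0.05. Calls among the members' 20 probes were 0, but 6 under median scaling. Calls among the 63 pathway genes were 3, but 22 under median scaling and 0 after quantile normalization, after normexp with quantile normalization (19 at an unadjusted p under 0.05), with no filter (6) and without any 1 array. Same-numbered arrays deviated together (r = 0.45 over 33606 probes), but with 2 pairs the numbers were not taken as pairing: with the replicate block 8522 probes and 1 member probe, Cd247 theta, were called. Cd3d turned to -0.41, Cd3g to -0.32 and Zap70 to -0.46 under median scaling. Cd3e turned to 0.14 and Cd247 to 0.073 after quantile normalization, to 0.16 and 0.094 after normexp with quantile normalization, and to 0.060 and 0.068 in the authors' deposited table. Cd247 turned to 0.30 as the mean over its probes, and when each array was left out Zap70 lay between -0.059 and 0.20, Cd247 between -0.37 and -0.051, Lck between -0.39 and -0.15, Lat between -0.67 and -0.29, Lcp2 between -0.63 and -0.26, Cd3d between 0.064 and 0.19, Cd3g between 0.13 and 0.29, Cd3e between -0.22 and -0.091, and Cd4 between -0.64 and -0.44. The cause was not tested. A slide block was not run, since the headers give 1 slide. On that slide both arrays numbered 1 lay in row 1 and both numbered 2 in row 2. Array number and slide row thus cannot be told apart.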
